A study of Mus musculus with 6 samples.

Results

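The genes described here are 10 isotypes of tubulin, the dimeric protein from which microtubules are built: the 7 beta-tubulin genes Tubb2a, Tubb2b, Tubb3, Tubb4a, Tubb4b, Tubb5 and Tubb6, and the 3 alpha-tubulin genes Tuba1a, Tuba1b and Tuba4a. They were chosen by name, with earlier results of these data known. They are 10 of the 55341 gene symbols in each count table, and all 10 passed the filter on low counts. The libraries were made from cultured mouse cerebellar granule neurons (CGNs), the small excitatory neurons of the cerebellum. There were 3 libraries labelled with the vehicle DMSO and 3 labelled with GSK-126, an inhibitor of EZH2, the enzyme that trimethylates histone H3 at lysine 27. The comparison asks which transcripts differ when that enzyme is blocked while CGNs mature. The labels give the agent and a replicate number but neither the dose, the days in culture nor a genotype. Per the study's methods, every culture came from pooled cerebella of CD1-IGS litters around the end of the first postnatal week. All cultures received cytosine arabinoside to stop the division of non-neuronal cells, and the inhibitor was added once. The labels name the source as cerebellum, although the titles name CGNs.

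Microtubules are polymers of alpha- and beta-tubulin dimers, and each subunit is encoded by a family of genes. Their proteins differ mostly in the acidic C-terminal tail, which protrudes from the polymer and carries modifications such as glutamylation and detyrosination. Neurons express a characteristic mixture. Tuba1a, Tubb2b, Tubb3 and Tubb5 are prominent in developing neurons, Tubb4a and Tuba4a are associated with mature brain, and Tubb6 and Tubb4b are found in many cell types. Tubulin mRNA is also autoregulated: when free dimers accumulate, the nascent N-terminal peptide is recognised on the ribosome and the message is degraded.

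All libraries had between 8058760 and 12047837 counts over genes, with 21943 to 23432 genes above 0. No pair of libraries agreed within sampling noise (chi-square divided by its degrees of freedom was at least 9.98). Of 10 granule neuron markers and 6 astrocyte markers all passed the filter, and the granule neuron markers together reached 4691 to 6013 CPM (counts per library scaled to a shared total with TMM factors) in DMSO and 3351 to 5068 CPM in GSK-126. The cultures were not pure: astrocyte markers summed to 2174 to 6875 CPM in DMSO and 2280 to 7123 CPM in GSK-126, and 5 fibroblast markers to 6698 to 8767 CPM and 8801 to 9749 CPM. The fibroblast sums of the groups thus did not overlap, by a narrow margin. Of all genes that passed the filter, 10.9% had groups that did not overlap. No marker of these 3 lists was at 0. In libraries from mixed cultures, fewer cells of a type and less RNA per cell cannot be told apart.

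Some isotypes of a family are near copies of each other, and how well their reads can be separated varies along the message. The first 30 coding bases are shown because they hold the codons of the N-terminal peptide that autoregulation reads; capitals mark the first 4 codons. They come from GENCODE M21 transcripts of GRCm38.
Tubb2a: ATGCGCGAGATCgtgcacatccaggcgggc
Tubb2b: ATGCGAGAGATCgtgcacattcaggcgggc
Tubb3: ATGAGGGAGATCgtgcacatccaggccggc
Tubb4a: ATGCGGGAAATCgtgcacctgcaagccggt
Tubb4b: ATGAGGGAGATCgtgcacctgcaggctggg
Tubb5: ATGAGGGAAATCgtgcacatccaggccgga
Tuba1a: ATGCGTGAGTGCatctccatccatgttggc
Tuba1b: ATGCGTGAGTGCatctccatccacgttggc
Tuba4a: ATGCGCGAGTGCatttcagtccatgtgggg

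The last 30 coding bases, with the stop codon, are shown for 7 isotypes because many isotypes diverge in the tail. Capitals mark bases that differ from the nearest printed relative, for the pairs Tubb2a and Tubb2b, and Tubb4a and Tubb4b. None of the marked bases changes an encoded amino acid, so within each pair the printed bases encode the same residues. The other genes printed had no relative within 3 differences and are in lower case.
Tubb2a: gaggaggaGgagggTgaAgatgaggcttga
Tubb2b: gaggaggaAgagggCgaGgatgaggcttga
Tubb3: gaggaatcggaagcccaggggcccaagtga
Tubb4a: gaAgaggaggctgaAgaggaggtggcttaA
Tubb4b: gaGgaggaggctgaGgaggaggtggcttaG
Tubb5: ttcggagaggaggcagaagaggaggcctaa
Tuba4a: tatgaggacgaggatgagggagaagagtag

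The beta-tubulin heads differed at 2 to 7 of 30 positions and the tails at 3 to 18. The heads of Tuba1a and Tuba1b differed at 1 position, whereas that of Tuba4a differed from them at 6 and 7 positions. Before the stop codon Tuba4a has gag, a glutamate codon. Tuba4a is thus made without the terminal tyrosine on which detyrosinating enzymes act. The study measured Tubb5 by qPCR with a primer pair that spans the end of the coding sequence; it is printed because each primer matched transcripts of Tubb5 alone.
Tubb5 sense primer: accgaagctgagagcaacat
Tubb5 antisense primer: caccatttacccccaatgag

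In GRCm38 the close copies lie side by side. Tubb2a (chromosome 13, 34074274 to 34078007, minus strand) and Tubb2b (chromosome 13, 34126748 to 34130466, minus strand) are 48740 bases apart, and Tuba1b (chromosome 15, 98931425 to 98934565, minus strand) and Tuba1a (chromosome 15, 98949837 to 98953703, minus strand) are 15271 bases apart. Tuba1c, an alpha-tubulin outside the 10, starts 76187 bases beyond Tuba1a. The other genes stand alone, Tubb3 at chromosome 8, 123411424 to 123422015 (plus strand), Tubb4a at chromosome 17, 57080066 to 57087782 (minus), Tubb5 at chromosome 17, 35833921 to 35838306 (minus), Tubb4b at chromosome 2, 25222160 to 25224702 (minus) and Tuba4a at chromosome 1, 75214228 to 75219865 (minus). Each gene has 4 exons in its main transcript. Leaving out chromosome 18, which holds Tubb6, RefSeq promoter windows of GRCm38.p6, 300 bases long, were found for 8 of the 10 genes. They held 16 to 39 CG dinucleotides (the letters CG, which read the same on both strands), against a median of 7 over 32851 windows outside that chromosome. The most CG-rich was Tuba1b, with a count reached by 4.45% of windows, and 33.0% of windows held at least the 16 of Tubb4b and Tuba1a.

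Of the fragments of each library 39.15% to 41.6% were assigned to genes, and 44.81% to 46.75% fell on no counted feature. Reads that align to several places were also not assigned to genes, and they were 9.54% to 10.4% of fragments per library. To see which isotypes this could undercount, all 150-base windows (one read) and 300-base windows (the span of a read pair) of each isotype's transcript were looked up in the annotated transcripts of other loci. Tubb3, Tubb4a, Tubb5, Tubb6 and Tuba4a shared 0 windows of either length. Tubb2a shared 27.9% of its 150-base windows and 19.2% of its 300-base windows, and Tubb2b 20.1% and 13.4%, in each case chiefly with the other of the pair, with which 96.5% of coding bases are identical. Tubb4b shared 16.8% of 150-base windows, all with the pseudogene Tubb4b-ps1, and 0 of 300 bases. Tuba1a shared 37.6% and 12.2% with other loci and Tuba1b 53.0% and 22.9%, among them Tuba1c and processed pseudogenes, and 98.3% of coding bases are identical between them. Counts of Tubb2a, Tubb2b, Tuba1a and Tuba1b are therefore uncertain and can be too low. The tables do not give unassigned reads by gene, so the size of the undercount was not measured.

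**Figure D1:**
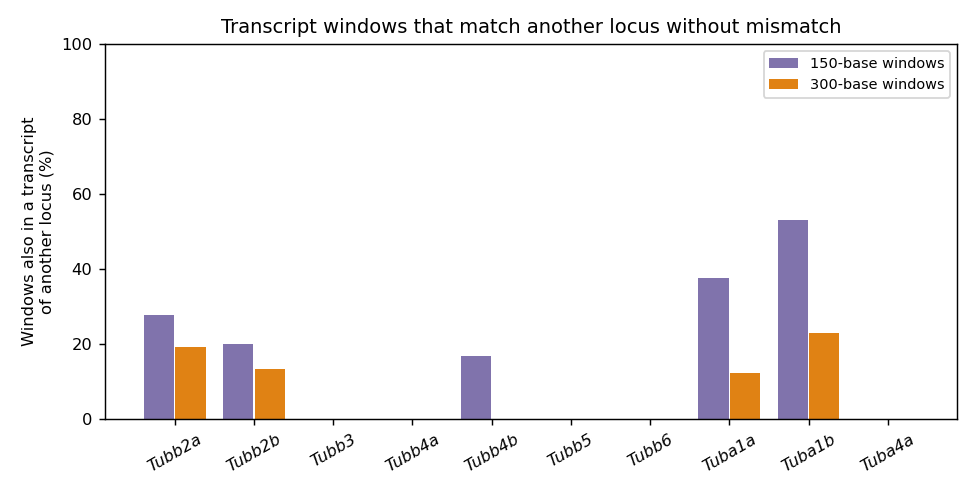
Bars give the percentage of 150-base (purple) and 300-base (orange) windows of each isotype's transcript that occur without mismatch in an annotated transcript of another locus. Tuba1b is highest at both lengths (53.0% and 22.9%), Tuba1a (37.6%) follows at 150 bases and Tubb2a (19.2%) at 300 bases, and Tubb3, Tubb4a, Tubb5, Tubb6 and Tuba4a are at 0.

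Copies took few counts. Tuba1c had a mean of 518 counts per library, and of the pseudogenes that share windows with an isotype only Gm3226 (mean 55.7) and Gm14150 (mean 40.8) reached a mean of 10. Overlapping genes are a separate limit. Exons of Tuba1a and Tuba1b overlap those of Gm49450 on the same strand over 26.2% and 22.7% of their bases, and Gm49450 was listed at 0 in all 6 libraries. Fragments set aside as ambiguous were 0.91% to 1.11% per library and are not given by gene. Reads over that overlap may be among them, so counts of Tuba1a and Tuba1b can also be too low. On the opposite strand, exons of Tuba1b overlap those of Gm41396 over 4.64% of bases and exons of Tubb4b those of Fam166a over 5.8%. Gm41396 had a mean of 931.5 counts per library and Fam166a 104. Exons of Tuba4a overlap those of Stk16, a kinase gene on the opposite strand, over 37.3% of bases. Whether the count used strand is not given in the sources used here. Without strand, reads over these opposite-strand overlaps cannot be told apart.

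Levels of different genes were compared as CPM per kilobase of annotated exon. Tuba1a, mutated in human cortical malformations and the main alpha-tubulin of new neurons, was highest in the DMSO libraries at 511 ± 77.2 (SD, n = 3), rank 30 among the 16343 genes tested. Tubb5, the broadly expressed class I beta-tubulin, followed at 219 ± 33.5 and Tubb2a at 184 ± 26.9, and the ranges of those 2 genes overlapped. Next came Tubb2b at 119 ± 17.3, Tuba1b at 119 ± 14.96 and Tubb4b at 96.5 ± 12.6, each overlapping its neighbour in that order. The lowest group held Tubb4a at 47.2 ± 12.2, Tubb3 at 47.0 ± 7.60, Tubb6 at 40.7 ± 6.83 and Tuba4a at 25.2 ± 21.8 (rank 2147), again with overlapping neighbours. The ranges of neighbours separated only below Tuba1a, below Tubb2a and below Tubb4b. Tubb3, whose product is a common marker of neurons, was thus the 8th of the 10 isotypes per kilobase in these cultures, with a range that overlapped those of Tubb4a and Tubb6. In GSK-126 the first 6 kept this order by mean, but Tubb3 (60.1 ± 6.52) and Tubb6 (52.3 ± 9.57) stood above Tubb4a (32.9 ± 3.46), and the ranges of Tubb4a and Tubb6 (30.2 to 36.8 and 41.3 to 59.1) did not overlap.

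**Figure D2:**
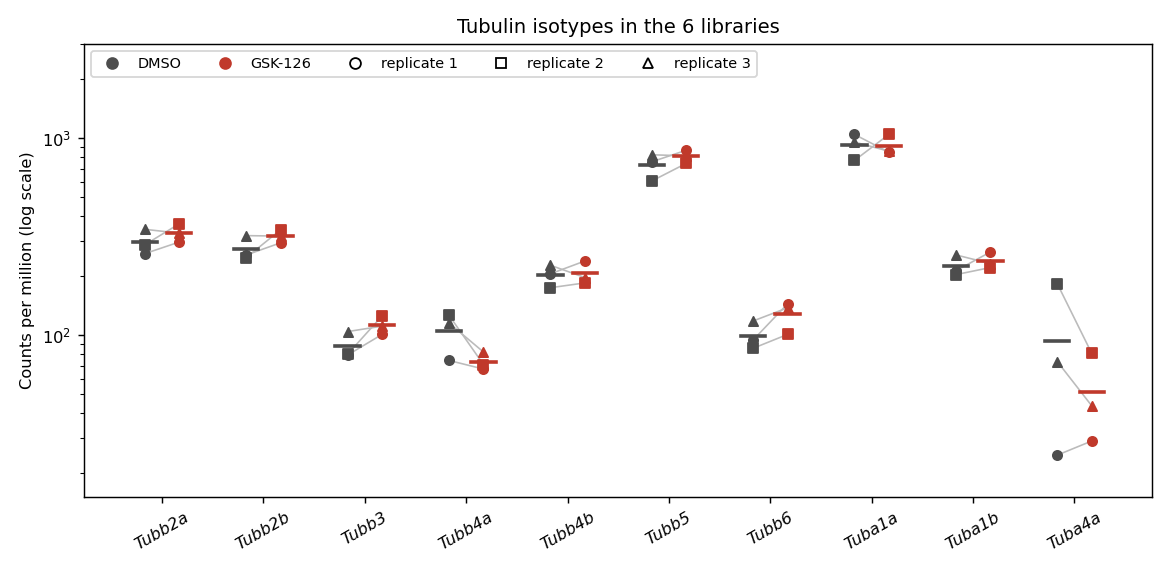
Level in CPM (log axis) of each isotype in the 3 DMSO (grey) and 3 GSK-126 (red) libraries, with the shape giving the replicate number, grey lines joining libraries of the same number and bars the group means. Groups overlap for every isotype, Tuba4a has the widest spread, and Tubb4a is lower in GSK-126 in all 3 pairs.

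No isotype passed an adjusted p of 0.05 when GSK-126 was compared with DMSO in edgeR's quasi-likelihood test, either with treatment alone, where 0% of the 16343 genes passed (981 did at an unadjusted p under 0.05), or with the replicate number as a block, where 3.65% passed. At an unadjusted p under 0.05, 2 isotypes passed without the block (Tubb3 and Tubb4a), beside 6.0% of all genes, and 4 with it (Tubb3, Tubb4a, Tubb6 and Tuba4a), beside 16.7% of all genes. The groups did not separate fully for any isotype in CPM, against 10.9% of all genes. In the 3 pairs of libraries that share a number, Tubb3 and Tubb6 were higher in GSK-126 in every pair, as were 19.7% of all genes, and Tubb4a was lower in every pair, as were 19.3%. The median log2 fold change was 0.12 over the 10 isotypes (7 positive, 3 negative) and -0.00 over all genes tested. DESeq2, with or without the block, called none of the 10 either.

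Tubb4a, class IVa beta-tubulin of mature brain, had the lowest adjusted p. Its level was 74.3, 126.02 and 115 CPM in DMSO replicates 1 to 3 and 67.2, 70.8 and 82.0 CPM in GSK-126 replicates 1 to 3. DMSO replicate 1 lay among the GSK-126 values, and the other DMSO libraries lay above all of them. Without the block the log2 fold change came to -0.52 (SE 0.201) at an edgeR adjusted p of 0.814. With it the estimate was -0.49 (SE 0.135, 95% interval -0.79 to -0.19) at an edgeR adjusted p of 0.0781, and the DESeq2 adjusted p with the block was 0.0594. With both libraries of number 1 left out, the block fit gave -0.66 (edgeR adjusted p = 0.0081), past the threshold, in a setting with 704 genes called in all. With number 2 or number 3 left out it gave -0.30 (edgeR adjusted p = 0.39) and -0.49 (edgeR adjusted p = 0.229), not past it. The pairs differed by log2 ratios of -0.14, -0.83 and -0.49. Beside this, 4 of the 10 granule neuron markers were lower past the threshold with the block (Neurod1, Etv1, Gabra6 and Rbfox3), against 3.65% of all genes called in either direction, and 0 without it. In all, 8 of the 10 had a negative log2 fold change with the block, while Barhl1 (0.39) and Pax6 (0.04) had a positive one. Their part in the Tubb4a values was not tested.

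Tubb3, the class III beta-tubulin largely restricted to neurons, measured 79.1, 79.9 and 104 CPM in DMSO and 101, 125 and 111 CPM in GSK-126. The DMSO library of replicate 3 was above the GSK-126 library of replicate 1, and the other values were ordered by group. The estimate was 0.35 on the log2 scale (SE 0.154) without the block, at an edgeR adjusted p of 0.825, and 0.36 (SE 0.125, 95% interval 0.09 to 0.63) with it, at 0.167. In the pairs the log2 ratio was 0.35, 0.64 and 0.09. Both the Tubb3 and the Tubb4a estimate thus have intervals that leave out 0 in the block fit, on opposite sides, while neither passed after adjustment.

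For Tubb5, Tubb2a and Tubb2b the 95% intervals of the change included 0. Tubb5 measured 757, 605 and 822 CPM in DMSO and 867, 743 and 812 CPM in GSK-126, with a log2 fold change in the block fit of 0.16 (95% interval -0.07 to 0.38, edgeR adjusted p = 0.485). Tubb2a measured 259, 287 and 344 CPM and 296, 367 and 329 CPM (block 0.16, -0.08 to 0.40, edgeR adjusted p = 0.511). Tubb2b, required for neuronal migration, measured 255, 247 and 320 CPM and 294, 342 and 318 CPM (block 0.22, -0.03 to 0.47, edgeR adjusted p = 0.366). For these 3 genes the highest DMSO value, in replicate 3, lay above at least 1 GSK-126 value, and pairs 1 and 2 were higher in GSK-126 whereas pair 3 was not.

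Of the beta-tubulins of wide distribution, Tubb6 (class V; chromosome 18, 67390717 to 67402749, plus strand) measured 94.4, 85.6 and 118 CPM in DMSO and 144, 101 and 137 CPM in GSK-126. Replicate 2 was lowest in both groups, and its GSK-126 value lay below DMSO replicate 3. Its log2 fold change was 0.36 in both fits, with an edgeR adjusted p of 0.825 without the block and of 0.142 with it (SE 0.117, 95% interval 0.10 to 0.61). Fibroblast marker sums of the groups were apart by a narrow margin (above), with 5 of 5 genes positive in the block fit and 1 (Col1a1) past the threshold, against 3.65% of all genes. Of the endothelial and mural markers 3 of 4 tested were positive and 1 (Pdgfrb, log2 fold change 0.63) passed, with sums of 153 to 230 CPM in DMSO and 207 to 303 CPM in GSK-126. Of 6 microglia markers 4 were positive and 1 (C1qb, 0.73) passed, with sums of 223 to 365 CPM and 260 to 574 CPM. Of 6 astrocyte markers 4 were positive and 2 negative, and of 7 oligodendrocyte lineage markers 4 were positive and 3 negative. In these last lists 0 passed in either fit, and the sums of the groups overlapped. The part of any of these cell types in the Tubb6 values was not tested. Tubb4b measured 204, 174 and 226 CPM and 237, 184 and 196 CPM, with a log2 fold change of 0.03 in both fits (block 95% interval -0.22 to 0.28).

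Among the alpha-tubulins, Tuba1a measured 1042, 769 and 954 CPM in DMSO and 846, 1043 and 857 CPM in GSK-126. Its ratio turned with the replicate number, at -0.30, 0.44 and -0.15 log2 for pairs 1 to 3, and the fitted change was -0.01 with and without the block (block 95% interval -0.30 to 0.29). Tuba1b measured 212, 203 and 255 CPM and 264, 220 and 231 CPM (block 0.10, 95% interval -0.15 to 0.35, edgeR adjusted p = 0.745). The groups overlapped for both genes.

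Tuba4a, an alpha-tubulin associated with mature brain, varied widely within groups. It measured 24.6, 182 and 73.4 CPM in DMSO replicates 1 to 3, a ratio of highest to lowest of 7.42, and 29.0, 80.7 and 43.7 CPM in GSK-126 replicates 1 to 3, a ratio of 2.79. The other 9 isotypes had ratios of 1.26 to 1.70 in DMSO. In both groups replicate 2 was highest and replicate 1 lowest. The pairs moved differently, with log2 ratios of 0.24, -1.17 and -0.74. Fitted without the block, the change was -0.87 on the log2 scale (SE 0.634) with an edgeR adjusted p of 0.841. Fitted with it, the change was -0.60 (SE 0.209, 95% interval -1.06 to -0.14) with an edgeR adjusted p of 0.167. Without DMSO replicate 2 it was 0.07 in the fit without a block. With both libraries of number 1 left out the block fit gave -0.98 (edgeR adjusted p = 0.00155), past the threshold, in the setting with 704 genes called in all. With number 2 or number 3 left out the block fit gave -0.26 (edgeR adjusted p = 0.653) and -0.51 (edgeR adjusted p = 0.26). The direction and the call of Tuba4a thus depended on which libraries entered.

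Other measures followed the same order of replicate numbers. Stk16, whose exons overlap Tuba4a, measured 41.4, 74.4 and 56.4 CPM in DMSO and 44.0, 54.3 and 46.9 CPM in GSK-126, also highest in replicate 2 and lowest in replicate 1 of each group. The granule neuron marker sum was highest in replicate 2 in both groups (6013 CPM in DMSO and 5068 CPM in GSK-126) and lowest in replicate 1 (4691 and 3351 CPM). The astrocyte marker sum ran the other way, at 6875, 2174 and 4071 CPM in DMSO and 7123, 2280 and 3602 CPM in GSK-126. How much of the spread of Tuba4a goes with any of these was not tested.

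**Figure D3:**
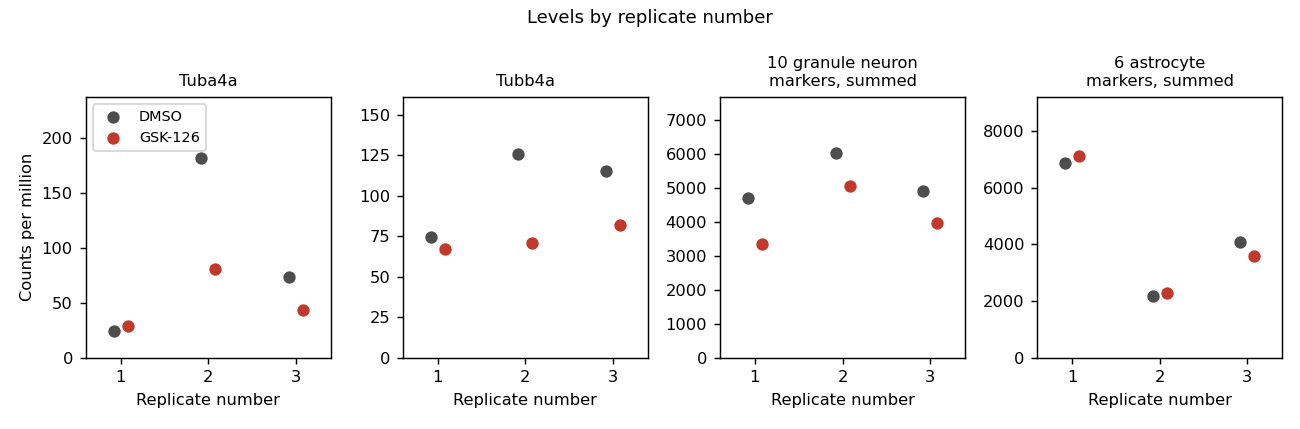
Level in CPM of Tuba4a, Tubb4a, the summed granule neuron markers and the summed astrocyte markers (y axes from 0) against replicate number, for DMSO (grey) and GSK-126 (red). Tuba4a is highest in replicate 2 of both groups (182 and 80.7), where astrocyte markers are lowest (2174 and 2280).

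**Figure D4:**
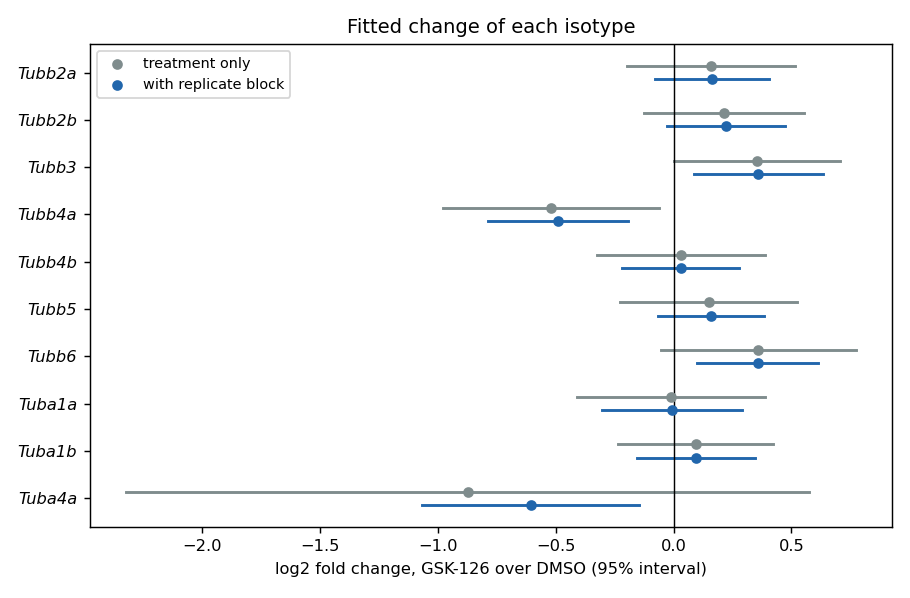
Fitted log2 fold change of GSK-126 over DMSO for each isotype with its 95% interval, from edgeR with treatment only (grey) and with the replicate block (blue). In the block fit the intervals of Tubb3, Tubb4a, Tubb6 and Tuba4a leave out 0, and none passed an adjusted p of 0.05.

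To ask whether the mixture rather than the level differed, each isotype was expressed as its share of its family per kilobase in the same library. The share of Tubb4a was 4.69%, 8.25% and 5.98% of beta-tubulin in DMSO and 3.64%, 3.84% and 4.42% in GSK-126, a mean of 6.31% ± 1.81 (SD, n = 3) against 3.96% ± 0.406. All GSK-126 values lay below all DMSO values. The share of Tubb3 was 5.95%, 6.24% and 6.45% in DMSO and 6.50%, 8.07% and 7.13% in GSK-126, also without overlap, at means of 6.21% ± 0.2496 and 7.23% ± 0.793. For each of these 2 isotypes the exact permutation p was 0.1, two-sided, the smallest that 3 libraries against 3 can give, and 0.5 after Benjamini-Hochberg adjustment over the 10 isotypes. That test did not use the pairs. The other 8 overlapped. In the pairs, the share of Tubb3 was higher in GSK-126 in 3 of 3, and those of Tubb4a and Tubb4b were lower in 3 of 3 (differences for Tubb4b of -0.05, -1.51 and -1.28 percentage points). The means of the 5 beta-tubulins among them, in DMSO and GSK-126, were 29.0% and 29.2% for Tubb5, 24.4% and 24.7% for Tubb2a, 15.8% and 16.7% for Tubb2b, 12.8% and 11.9% for Tubb4b and 5.39% and 6.29% for Tubb6.

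Since the isotypes of a family sum to 100%, a lower share of one raises others. As a description of the same values, the ratio of Tubb3 to Tubb4a per kilobase was 1.27, 0.756 and 1.08 in DMSO and 1.79, 2.10 and 1.61 in GSK-126. Its separation follows from that of the 2 shares and was not tested. Neither gene shares windows with a copy. With shares of raw counts, or with the length of the longest transcript in place of all exons, 1 isotype (Tubb4a) in place of 2 had groups that did not overlap.

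Within alpha-tubulin, Tuba1a held 77.7% ± 4.91 in DMSO and 78.2% ± 2.34 in GSK-126, Tuba1b 18.2% ± 1.85 and 19.8% ± 3.23, and Tuba4a 4.09% ± 3.88 and 2.08% ± 0.894. The share of Tuba4a was 0.952%, 8.43% and 2.89% in DMSO and 1.27%, 3.04% and 1.94% in GSK-126. Shares of Tuba1a and Tuba1b rest on counts that near copies lower by amounts that were not measured. The 10 isotypes together took 0.304% ± 0.0299 of counts in DMSO and 0.316% ± 0.00821 in GSK-126 (exact permutation p = 0.6, two-sided), and the share was higher in GSK-126 in 2 of 3 pairs.

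**Figure D5:**
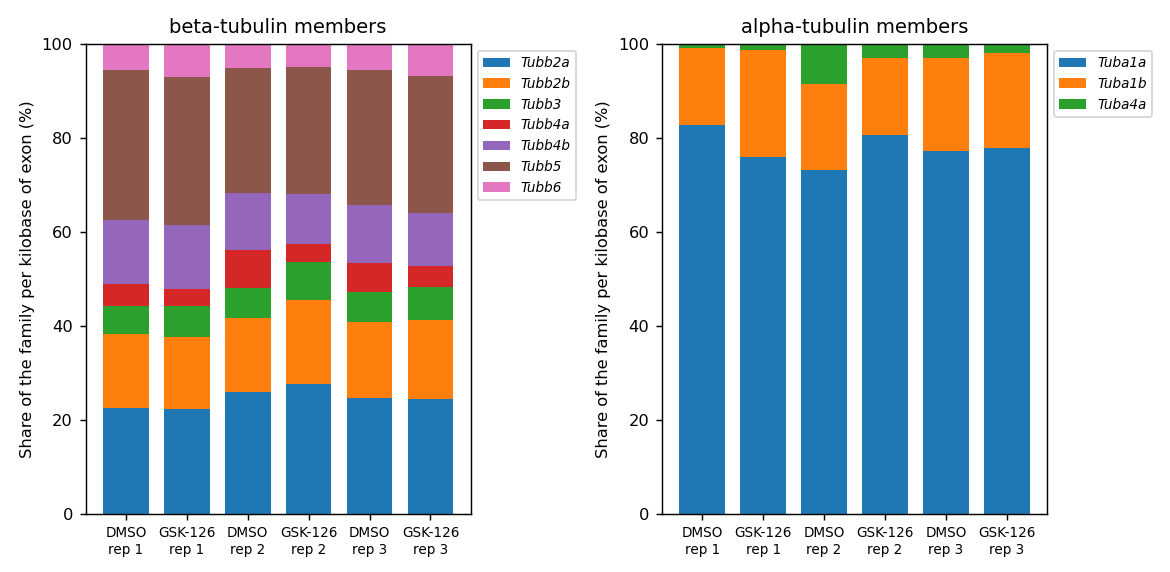
Stacked bars give the share of each isotype in its family, per kilobase of exon, in each library, with beta-tubulins on the left and alpha-tubulins on the right and libraries of the same replicate number side by side. Tubb4a (red) is 4.69% to 8.25% in DMSO and 3.64% to 4.42% in GSK-126, and the alpha-tubulin mixture is dominated by Tuba1a.

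The genes that fold, modify, nucleate and cut microtubules gave no call. Of 21 genes for tubulin folding (the CCT chaperonin, prefoldin and tubulin cofactors) 21 were tested and 0 passed in either fit, with 13 positive and 8 negative in the block fit and a median log2 fold change of 0.04. Of 28 modification genes, which add or remove tyrosine, glutamate, glycine or acetyl groups, 20 were tested and 0 passed (median 0.04). The 2 genes of mRNA autoregulation were tested and neither passed (median -0.08). None of 9 nucleation genes (median 0.04), of 6 of 7 severing genes tested (median -0.11) or of 5 of 10 other tubulins tested (median -0.02) passed. The background of 3.65% called in the block fit applies to each of these lists.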

How the data were processed

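RNA-seq of 6 libraries was analysed from the deposited tables, which hold whole-number counts of reads per gene with no normalization. Per the study's methods and the submitters' processing notes, the authors trimmed reads with Trimmomatic 0.38, aligned them to GRCm38 with STAR 2.7.2b and counted exons with HTSeq over a GENCODE annotation of GRCm38.p4; the strand setting and the GENCODE release are not given in the sources used here. The 5 summary rows were left out of library sizes. No other column held sample values (0 columns). Counts were filtered by filterByExpr (16343 genes) and scaled by TMM, and tested with the quasi-likelihood test of edgeR 4.0.16 with Benjamini-Hochberg adjustment at 0.05; the alternatives included DESeq2 1.42.0 and the replicate block. A replicate is a pool of cerebella per the study's methods; the labels say only that the libraries are separate samples.

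Same-numbered libraries correlated in their deviations from group means (0.35, 0.50 and 0.52; others -0.41 to -0.01), so the numbers were taken to pair the libraries. Deviations cancel within a group, so positive values for same-numbered libraries force negative ones among the others. The others are therefore no separate evidence of pairing. Shares per library were tested by exact permutation tests with SciPy 1.17.1, which permuted all libraries and did not use the pairs. Transcripts and annotation used here were GENCODE M21, in which all 55341 symbols were found, and may not be the authors' release. The 10 isotypes and the gene lists were chosen with earlier results of these data known, and all 10 isotypes are named; list genes are named if called, Barhl1 and Pax6 were named after their values were seen, and copies if their mean count was at least 10. Counting error is not the only error, since duplicates were not marked. Some tail sequences are not reported here.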

Additional observations from a re-analysis of the deposited data

How the results depend on the processing

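Of 150 log2 fold changes of isotypes under alternatives 137 kept their direction and side of the threshold, 11 changed direction and 2 passed the threshold; of 110 share differences 99 kept and 11 changed direction. The cause was not tested. Genes called numbered 0 without the block, 597 with the replicate block, 85 without a filter, 59 with DESeq2 and 670 with DESeq2 and the block; with the block and number 1, 2 or 3 left out they were 704, 178 and 359, and without single libraries 0. With the block and number 1 left out, Tubb4b was -0.0645, Tuba1a 0.1423 and Tuba1b -0.0145, and without number 3 Tuba1a was 0.0703. Without single libraries the log2 fold change ran from -0.0863 to 0.1359 for Tubb4b, from -0.114 to 0.094 for Tuba1a and from -1.364 to 0.0662 for Tuba4a. The difference in the share of all counts ran from -0.0029 to 0.027 percentage points (-0.0029 without DMSO replicate 2). Isotypes whose shares did not overlap numbered 1 with raw counts, 1 with the longest transcript, 4 without number 2 and 2 to 4 without single libraries (4 without GSK-126 replicate 1 or 2). Groups of fewer libraries separate more readily, so a higher count there does not show a stronger separation. The exact permutation p of Tubb3, whose groups did not overlap, was 0.2 without DMSO replicate 1 and 0.333 without number 2. These are the smallest two-sided values that groups of those sizes can give, so they do not show a weaker separation. Share differences without single libraries ran from -1.09 to 1.57 points for Tubb2a, -1.06 to 1.67 for Tubb5, -1.88 to 3.01 for Tuba1a and -3.58 to 0.16 for Tuba4a; without number 2 Tubb2a was -0.31 and Tuba1a -3.11, and with further tubulins in the denominators Tuba1a was -0.11. Alternatives without number 2, with exon bases free of overlap and without Tuba1a were chosen after seeing the data. The depth does not limit the isotypes, the rarest of which had 213 counts in 1 library.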
